A study of Homo sapiens with 2 samples.

Results

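CCND2, the gene of cyclin D2, held 5 of the 368 peaks in a list of RNA regions bound by FLAG-tagged USP39, and the authors assigned all 5 to introns. The peaks were chosen by the gene name that the list gives to each peak, so their number and their intronic class follow from the peak calls and carry no test. RNA immunoprecipitation followed by sequencing was done in A2780, an established human ovarian cancer cell line that the labels call serous, carrying FLAG-tagged USP39. Per the methods of the study, the cells were cross-linked with formaldehyde and the precipitation was done on lysed nuclei. There was 1 library of RNA precipitated with antibody against FLAG and 1 library of input RNA from the same tagged cells. Neither library had a replicate, and cells without the tag were not analysed here. Each listed peak has a position on hg19, a region, a transcript and a gene, with no read count or score. The study shows the fold enrichment of its peaks in a figure, which was not used here. The depth and strength behind a peak are therefore not known from the list, and the peaks could not be ordered by signal.

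Cyclin D2 is a regulatory subunit of the kinases CDK4 and CDK6. Its complexes phosphorylate the retinoblastoma protein and promote passage from G1 into S phase. USP39 is a factor of the spliceosome that takes part in the assembly of the tri-snRNP, the particle that joins the pre-mRNA before the first step of splicing. Splice sites are therefore the natural landmarks against which to set the position of peaks in an intron.

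In GENCODE release 44 on hg19, CCND2 spans 35583 bp of the forward strand of chromosome 12 (chr12:4378937-4414519) and has 8 transcripts. The canonical transcript, CCND2-201, has 5 exons and introns of 1769, 2539, 9922 and 10869 bp. Peak 1 lay in intron 3, and peaks 2 to 5 lay in intron 4. The splice sites that bound these introns, and those of the alternative exons within them, are given for the forward strand of hg19 with 20 bases on either side of the junction and exon bases in capitals, since the distances reported for the peaks are measured to these junctions.
Intron 3 donor, chr12:4388066-4388105: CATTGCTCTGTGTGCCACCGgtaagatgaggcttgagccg
Acceptor of the alternative exon in intron 3, chr12:4394421-4394460: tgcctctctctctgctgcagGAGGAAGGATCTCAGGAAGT
Donor of the alternative exon in intron 3, chr12:4394463-4394502: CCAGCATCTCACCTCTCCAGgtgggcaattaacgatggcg
Intron 3 acceptor, chr12:4397988-4398027: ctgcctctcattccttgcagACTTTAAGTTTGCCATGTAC
Intron 4 donor, chr12:4398137-4398176: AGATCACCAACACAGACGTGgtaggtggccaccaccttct
Acceptor of the alternative last exon in intron 4, chr12:4406903-4406942: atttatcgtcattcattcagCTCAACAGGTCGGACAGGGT
Intron 4 acceptor, chr12:4409006-4409045: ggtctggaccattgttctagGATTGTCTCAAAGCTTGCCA
All 7 junctions had GT or AG as the intron dinucleotide. The alternative exon in intron 3 belongs to CCND2-206, which is protein-coding, and its acceptor is shared by CCND2-204, a transcript annotated as a retained intron. The alternative last exon in intron 4 belongs to CCND2-202, whose coding sequence is not defined.

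Peak 1 (chr12:4392401-4393200) was 800 bp wide, which was 8.06% of intron 3 and 2.25% of the gene. Its midpoint lay at 47.5% of the length of the intron. Peak 2 (chr12:4398601-4400000) was 1400 bp wide, or 12.9% of intron 4 and 3.93% of the gene, with its midpoint at 10.5% of the intron. Peak 3 (chr12:4400401-4401800) had the same width and shares, and its midpoint lay at 27.1% of the intron. These were the widest CCND2 peaks, and 25 of the 156 intron peaks of other genes were at least as wide. Peak 4 (chr12:4403801-4404600) and peak 5 (chr12:4405801-4406600) were 800 bp wide each, or 7.36% of intron 4 and 2.25% of the gene. Their midpoints lay at 55.6% and 74.0% of the intron. The CCND2 peaks had a median width of 800 bp, against 600 bp over the 156 intron peaks of other genes, of which the middle 50% ran from 200 to 1025 bp. Over the 114 intron peaks on chromosome 12, CCND2 included, the median was 400 bp. All edges of the 205 listed peaks on chromosome 12 fell on bins of 200 bp, so no position is finer than a bin. The methods give a fragment length for sheared DNA that is longer than a bin, and none for the RNA, so the resolution may be coarser than 200 bp.

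Together the peaks covered 5200 bp, which was 14.6% of the gene, 16.5% of the canonical transcript and 20.7% of its 25099 bp of intron. Intron 4 held 4400 bp of this and was covered to 40.5%, and intron 3 held 800 bp and was covered to 8.06%. The covered share of intron 4 was 5.02 times that of intron 3, although the introns are of similar length. Introns 1 and 2 and all 5 canonical exons, the last of which contains the 3′ UTR, overlapped no listed peak. Introns 3 and 4 make up 82.8% of the intron sequence of the canonical transcript. The gaps between successive peaks were 5400, 400, 2000 and 1200 bp, so that peaks 2 and 3 were separated by 2 bins. The first peak began 9473 bp after the start of the canonical transcript and the last ended 7919 bp before its end. The 5 peaks carry successive numbers in the list, 43 to 47, and no listed peak of another gene lay among them. The numbers run up to 1443 and the list holds 368 of these. The other numbers were not analysed here, so a gene without a listed peak is one without a peak among the 368.

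**Figure D1:**
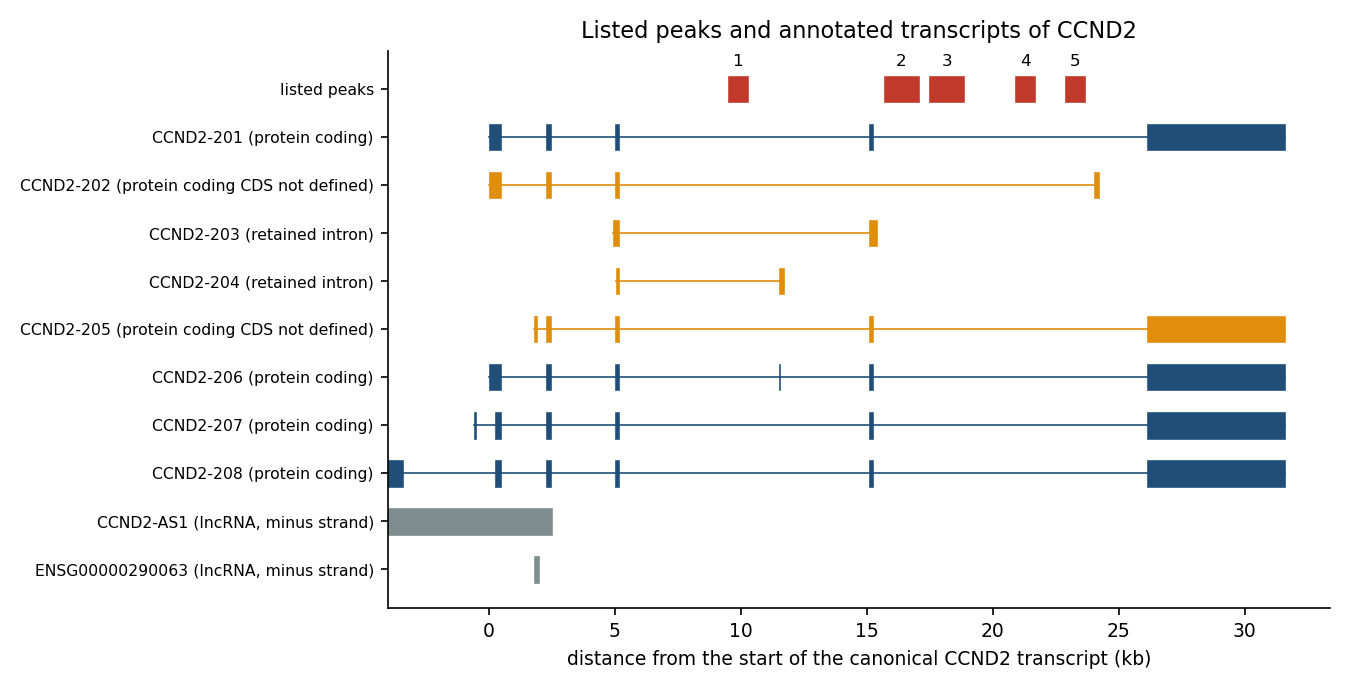
Listed peaks (red, numbered 1 to 5) above the 8 annotated CCND2 transcripts, drawn to scale by distance in kb from the start of the canonical transcript, CCND2-201. Boxes are exons and lines are introns, protein-coding transcripts are blue and the others orange, and grey boxes are long non-coding RNA genes on the opposite strand, drawn only within the span of CCND2. Peak 1 lies in intron 3, peaks 2 to 5 lie in intron 4, and no peak touches an exon or a grey box.

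None of the 5 peaks came within 100 bp of an annotated CCND2 splice site, the window around junctions used in the study's methods. Over all 149 intron peaks that overlapped their annotated gene, 32 (21.5%) had a base in this window. These were 3 of the 49 peaks of HMGA2 and its antisense gene, and 29 of the 100 others, CCND2 included. The distances of the CCND2 peaks to the nearest site of any transcript ran from 323 to 2323 bp, with a median of 1241 bp. Among the 144 such peaks of other genes the median was 1905.5 bp, 44 were nearer to a splice site than any CCND2 peak, and 65 were farther than all of them. The CCND2 distances thus fell within the range of the other intron peaks. HMGA2, an architectural chromatin protein and the gene with the most intron peaks, had 42 of these, with a median distance of 6396 bp. Without HMGA2 the median of the other genes was 1207.5 bp. Distances depend on the length of the introns, and this was not corrected for.

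The peak nearest to a splice site was peak 5, which ended 323 bp before the acceptor of the alternative last exon of CCND2-202. That peak was 2426 bp from the canonical acceptor of intron 4 and 7645 bp from the nearest canonical donor. Peak 2 began 445 bp after the canonical donor of intron 4, and it was the nearest to a canonical site. Peak 3 began 2245 bp after the same donor. Peak 4 was 2323 bp from the alternative acceptor, 4426 bp from the canonical acceptor and 5645 bp from the canonical donor of its intron. Peak 1 was 4316 bp from the canonical donor of intron 3 and 4808 bp from its acceptor, and the nearest canonical acceptor, that of exon 3, was 4475 bp away. The alternative exon of CCND2-206 was nearer to it, with its acceptor at 1241 bp and its donor at 1282 bp. An alternative site was thus the nearest for peaks 1, 4 and 5, and a canonical donor for peaks 2 and 3. Within 500 bp of a splice site lay 2 of the 5 CCND2 peaks and 47 of the 144 intron peaks of other genes (32.6%).

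**Figure D2:**
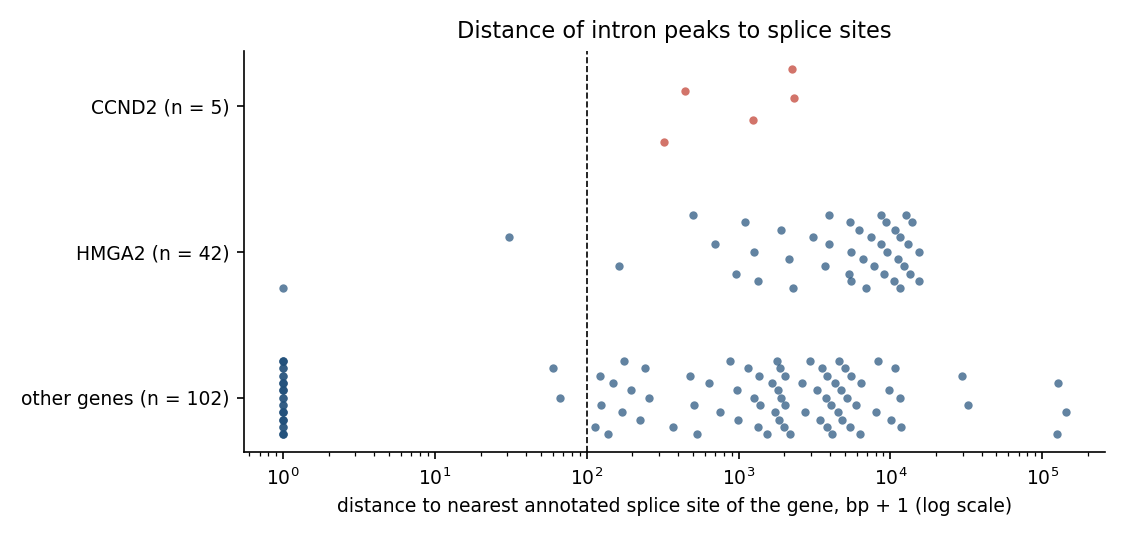
Distance in bp, plus 1 and on a log scale, from each intron peak to the nearest annotated splice site of its gene, for CCND2 (red, n = 5), HMGA2 (n = 42) and all other genes (n = 102). Each point is 1 peak, vertical position within a group has no meaning, and the dashed line marks 100 bp. The CCND2 points lie between 323 and 2323 bp, to the right of the line.

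The peaks did not overlap any non-coding gene on either strand. Over the 149 matched intron peaks, 22 (14.8%) overlapped the span of a long non-coding RNA gene other than their own, 6 of them among the 49 peaks of HMGA2 and its antisense gene. The nearest non-coding gene to each CCND2 peak was CCND2-AS1, a long non-coding RNA gene on the reverse strand that overlaps the first 6482 bp of the CCND2 span. Its nearest end was 6983 bp from peak 1 and 20383 bp from peak 5. A second long non-coding RNA gene on that strand, ENSG00000290063, is 194 bp long and lies within intron 1 of CCND2. None of the CCND2 peaks overlapped an exon of any annotated transcript, against 39 of the 149 matched intron peaks (26.2%) that overlapped an exon of their own gene. All 5 peaks lay within the spans of CCND2-202 and CCND2-205, which have no defined coding sequence, and peak 1 also lay within the spans of the retained-intron transcripts CCND2-203 and CCND2-204, in each case between exons. The last exon of CCND2-203 reads past the intron 4 donor and ends 274 bp before peak 2. The list gives no strand, so a peak could not be assigned to a strand. A readthrough gene on the forward strand, ENSG00000285901, also spans all 5 peaks, and its RNA cannot be told apart from that of CCND2 by position.

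Intron peaks were counted per 10 kb of canonical intron in the 47 genes whose intron peaks overlapped an annotated gene of their name. The 149 of the 161 intron peaks that overlapped their gene were counted. CCND2 had 1.99 peaks per 10 kb, against a median of 0.366 over the 47 genes, a ratio of 5.45, and ranked 7th. Of the 47 genes, 26 had a single intron peak. Since these calls chose the gene, the rank is a description. Of the genes above it, HOXC6 and PRH1-PRR4, named after their values were seen, each had 1 intron peak that did not overlap an intron of the canonical transcript, and the PRH1-PRR4 peak was counted on PRH1, the gene matched to its older name. With only peaks in canonical introns counted, an alternative chosen after seeing the data, CCND2 ranked 5th of 44 genes. By the share of canonical intron bases covered, 20.7% against a median of 0.772%, it ranked 4th.

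Among the 12 genes with at least 3 intron peaks, whose median was 0.868 per 10 kb, the ratio for CCND2 was 2.30 and it ranked 4th. Another 3 genes with at least 3 listed intron peaks, LOC101927810, SLC5A3 and CECR7, are not among the 12, because none of their intron peaks overlapped an annotated gene of their name. HNRNPU, which encodes a nuclear RNA-binding protein, had 4.07 per 10 kb from 3 peaks with a median width of 210 bp, and 8.22% of its introns were covered. HMGA2 had 3.05 per 10 kb and 26.3% covered. LOC100129940 (current symbol HMGA2-AS1), which lies within HMGA2, had 2.34 per 10 kb from 7 peaks and 26.2% covered. The genes next below CCND2 were EMP1, a membrane protein gene, with 1.73 per 10 kb and 24.3% covered, LOC400927 (TPTEP2) with 1.35 and 11.996%, and SLC38A1, an amino acid transporter gene, with 0.385 and 5.04%. For LOC400927, 1 of its 4 listed intron peaks lay outside the annotated gene and was not counted, and with it the density was 1.80 per 10 kb, above EMP1 and below CCND2. CCND2 was within 1.53 times of HMGA2 in density and had a lower covered share. SLC38A2, a further amino acid transporter gene, was named after its values were seen as the gene nearest to CCND2 in density, with 2.04 per 10 kb from 2 peaks and 19.3% covered. LOC100288798 (SLC38A4-AS1) was the other gene with 5 intron peaks, spread over 490877 bp of intron, which gave 0.102 per 10 kb.

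The most covered intron of CCND2, intron 4 at 40.5%, ranked 12th among the most covered introns of the 47 genes, whose median was 16.5%. Short introns can be covered by a single bin, and the introns covered to 100% were between 85 and 652 bp long. Intron 4 is also the longest intron of CCND2 and held 4 of its 5 peaks. In 7 of the 12 genes with at least 3 intron peaks, more than 50% of the peaks lay in the longest intron, CCND2 among them. CCND2 was also among 10 of these 12 genes with no peak that the list classes as exon or UTR. This is the class given in the list. By the annotation used here, intron peaks of some of the 10, HNRNPU and HMGA2 among them, overlapped an exon of their gene. CCND2 was among 6 of the 12 with no intron peak within 100 bp of a splice site.

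**Figure D3:**
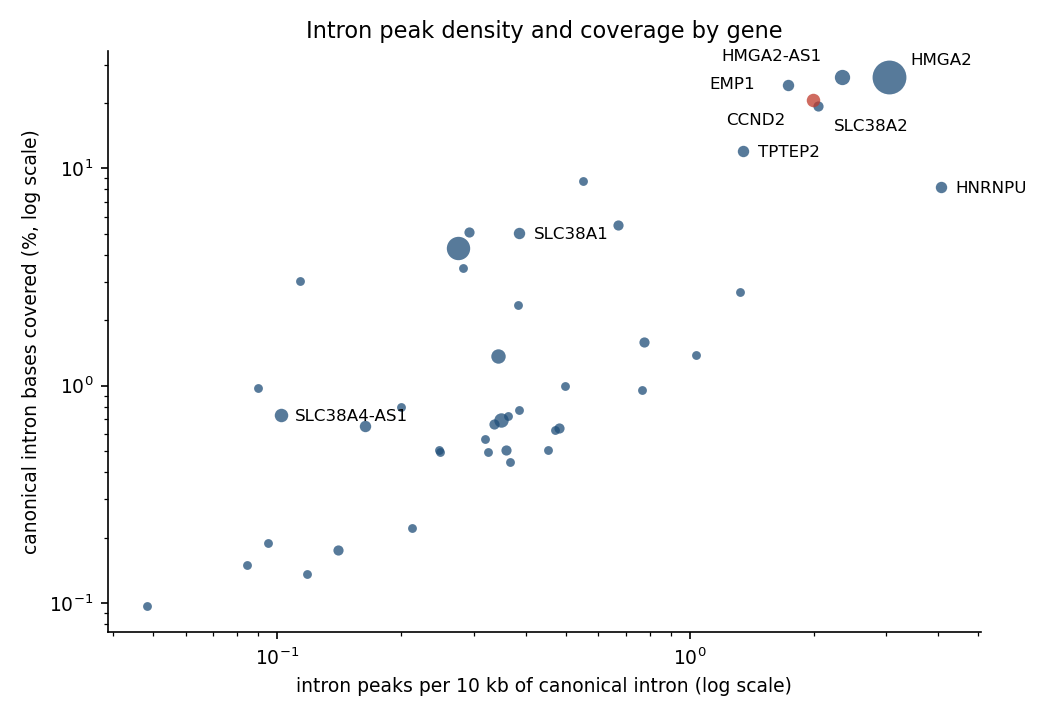
Intron peaks per 10 kb of canonical intron (x axis, log scale) against the percent of canonical intron bases covered (y axis, log scale) for the 44 genes with a peak in a canonical intron. Each point is 1 gene, its area grows with the number of intron peaks, and CCND2 is red. CCND2, at 1.99 per 10 kb and 20.7%, lies beside SLC38A2, EMP1, HMGA2-AS1 and HMGA2.

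The sequences of the peaks were read from hg19. None of the 5 had another copy in the genome at 95% identity over 80% of its length, against 7 of all 161 intron peaks (4.35%). The GC content was 53.3% in peak 1, 53.1% in peak 2, 43.4% in peak 3, 49.4% in peak 4 and 44.1% in peak 5. All of these were above the median of 39.7% over the 156 intron peaks of other genes, of which 8 were above peak 1 and 44 above peak 3. Intron 3 had a GC content of 51.3% outside its peak, and intron 4 had 48.4% outside its peaks against 47.7% within them. The pooled value for intron 4 joins peaks on either side of it, since peaks 2 and 4 were above the 48.4% outside the peaks and peaks 3 and 5 were below it.

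The longest run of C and T was compared because such runs precede acceptors in introns. It was 12 bases in peak 1, 16 in peak 2, 9 in peak 3, 13 in peak 4 and 9 in peak 5. The median over the 156 intron peaks of other genes was 11. Of these peaks, 92 were narrower than any CCND2 peak, and a wider peak can hold a longer run. The runs of the 3 peaks with more than 10 such bases are shown in capitals with 30 bases on either side.
Peak 1, chr12:4392968-4393039: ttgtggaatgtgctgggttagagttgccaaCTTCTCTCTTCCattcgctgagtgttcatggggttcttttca
Peak 2, chr12:4398626-4398701: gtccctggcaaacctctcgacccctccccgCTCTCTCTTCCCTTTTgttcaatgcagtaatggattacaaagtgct
Peak 4, chr12:4404042-4404114: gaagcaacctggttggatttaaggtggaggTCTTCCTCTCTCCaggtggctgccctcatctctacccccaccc
Runs of at least 10 such bases were found in 76.7% of 4266 windows of 800 bp and 90.7% of 2337 windows of 1400 bp laid end to end over the canonical introns of the 47 genes. No run in intron 4 was longer than that of peak 2, while intron 3 held a run of 44 bases outside its peak.

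The letters GTAAGT, a common form of the start of an intron, were searched on both strands. They occurred 1 time on the forward strand in peak 1 and 1 time in peak 4, and on the reverse strand in none of the 5 peaks. Of the windows of 800 bp, 15.5% held these letters on the strand of the gene and 13.6% on the other strand, and of the windows of 1400 bp, 25.1% and 22.6%. A match is a match of letters and no annotated donor lay at either place. Both are shown with the match in capitals and 20 bases on either side.
Match in peak 1, chr12:4392578-4392623: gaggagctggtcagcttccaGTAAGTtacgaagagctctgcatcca
Match in peak 4, chr12:4404526-4404571: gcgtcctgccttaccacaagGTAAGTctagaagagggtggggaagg

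Parts of peaks 3 and 5 recur elsewhere in the genome. Of the words of 25 bases in each peak, 8.43% in peak 3 and 13.02% in peak 5 occurred more than 1 time in hg19, on either strand, and in peaks 1, 2 and 4 each word occurred 1 time. The median over the intron peaks of other genes was 1.08%. In intron 4, 5.48% of the words that began within the peaks recurred, against 11.7% of those outside them. The bin directly after peak 4 had 69.9% recurring words and the bin directly after peak 5 had 88.1%, those directly after peaks 1, 2 and 3 had 0%, and those directly before the 5 peaks had at most 5.68%. How reads that align to several places were counted is not given in the sources used here, and a part of such reads in where peaks 4 and 5 end was not tested.

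**Figure D4:**
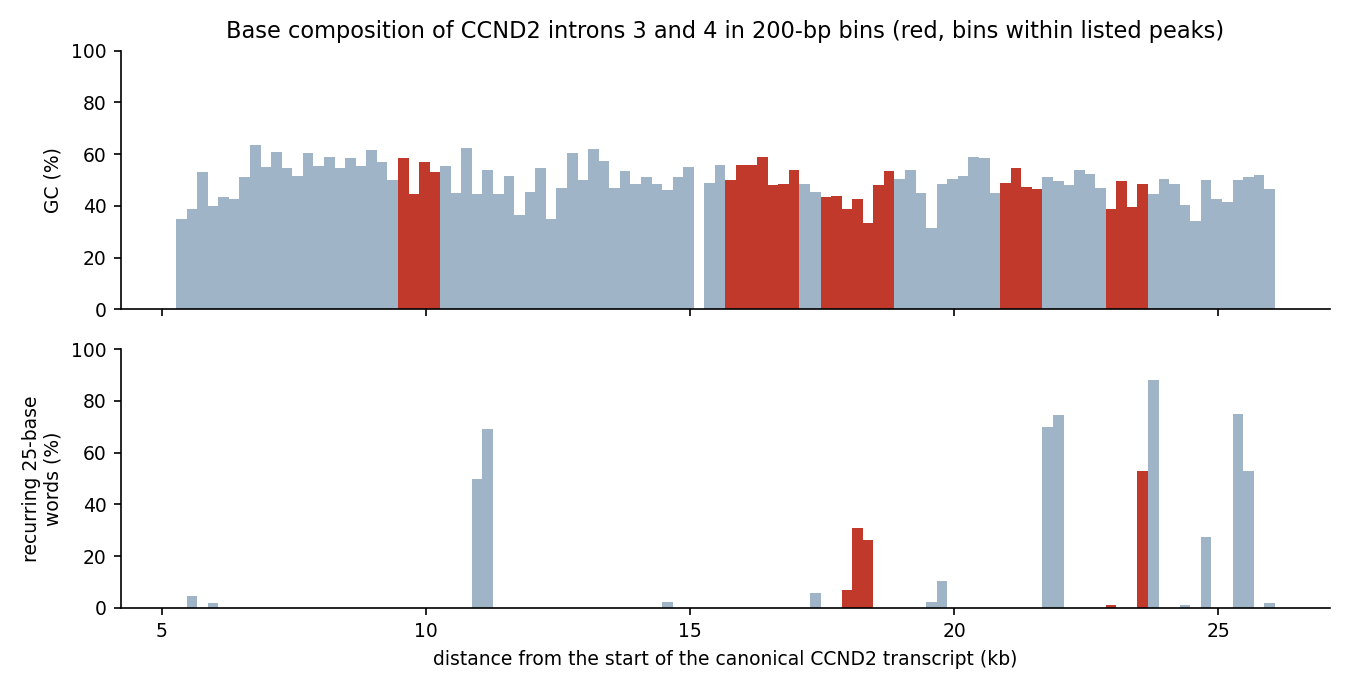
GC content (upper panel, %) and share of 25-base words that occur more than 1 time in hg19 (lower panel, %) in bins of 200 bp along introns 3 and 4 of CCND2, by distance in kb from the start of the canonical transcript. Red bars are bins within the listed peaks, and the gap near 15 kb is exon 4. In intron 4, GC content runs from 33.5 to 59% in red bars and from 31.5 to 59% in grey bars, and the tallest lower bar in red, 52.8%, is the last bin of peak 5.

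Genes of the cell cycle and genes related to them, 32 in all with CCND2 among them, were counted in the list by name. Of the 31 besides CCND2, which was chosen for its peaks, FOXM1 alone had a listed peak. Over the 20176 protein-coding genes of the annotation, 142 (0.704%) carried a listed peak under their name, or 1.87% of those on the 8 chromosomes that hold the listed peaks. On these chromosomes the like count was 1 of 11 genes besides CCND2. A single gene is not read as a result about the pathway. The genes without a listed peak included the cyclins CCND1 and CCND3, the partner kinase CDK6, the retinoblastoma gene RB1 and the inhibitor CDKN1A, all on chromosomes with no listed peak of any gene, and the kinase CDK4 and the inhibitor CDKN1B, both on chromosome 12. They were named as examples after the counts were seen. Of the 32 genes, 12 are on these 8 chromosomes and 7 on chromosome 12. The 32 include CCNT1, a cyclin of transcription elongation, and CDK17, and without this pair, left out after seeing the data, 10 genes were on the 8 chromosomes and 5 on chromosome 12. FOXM1, a transcription factor of the cell cycle, had 1 peak in an exon (chr12:2977801-2978000), which was also the listed peak nearest to CCND2 on the upstream side, 1.41 Mb before peak 1. The study used FOXM1 as its negative control in PCR of precipitated RNA, a measurement not analysed here. On the other side the nearest was an intron peak of CHD4, a chromatin remodelling ATPase, 2.28 Mb after peak 5. TIGAR, the next protein-coding gene, begins 2410 bp after the end of CCND2, and neither it nor FGF23 beyond it overlapped a listed peak.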

How the data were processed

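Per the labels and the methods of the study, the authors trimmed the reads, removed rRNA sequences, aligned the rest to hg19 with TopHat2 2.0.13 and called and annotated peaks with RIPSeeker below an empirical false discovery rate. How the input entered the calling is not given in the sources used here. The deposited list holds positions in bp, counted from 1, with no count or score. Here, peaks were matched by name, or through the gene identifier and older names, to GENCODE release 44 lifted to GRCh37. Splice sites were measured from the nearest base of a peak. Copies were sought with minimap2 2.31, and words of 25 bases were counted in Python 3.11.15 with numpy 2.4.6. Both, and the distances, were tested on simulated data. The members and gene lists were chosen with earlier results of these data known. The genes named were CCND2, cell cycle genes with a peak, HMGA2, neighbours, genes with as many intron peaks and, among genes with at least 3, the 5 densest and the 3 on either side of CCND2. HOXC6, PRH1-PRR4, SLC38A2, genes left out and cell cycle genes without a peak were named outside this rule, after seeing the data. Alternatives changed the denominator, merging, genes and peaks counted, intron definition, splice site window and copy threshold. The counts of words and of GTAAGT were added after seeing the data, and repeat masking was not used.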

Additional observations from a re-analysis of the deposited data

How the results depend on the processing

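CCND2 was chosen for its peaks, and 26 of the 47 genes compared had a single intron peak. That its intron peak density exceeds that of the median gene is therefore no check. The ratio of CCND2 to the median gene, 5.45 with a rank of 7, was above 1 under all 12 alternatives. It was 4.90 (rank 3) per 10 kb of gene span, 26.8 (rank 4) by share of intron bases covered, 4.44 with peaks merged within 1000 bp (rank 4) or 400 bp (rank 8), 2.30 (rank 4) among genes with at least 3 intron peaks, 5.18 (rank 6) among protein-coding genes, 5.53 (rank 6) on chromosome 12, 4.02 (rank 8) with all genic peaks and 5.17 (rank 7) with bases outside the exons of every transcript. Of the alternatives chosen after seeing the data, it was 5.53 (rank 5) with peaks in canonical introns, 5.48 (rank 6) without genes nested in another and 2.45 (rank 12) for the most covered intron. The cause of these shifts was not tested. The number of CCND2 peaks within 100 bp of a splice site was 0 with a window of 200 bp and 2 with a window of 500 bp. Measuring from the midpoint or to canonical sites alone can only lengthen the distances, so a count of 0 there is no check. The share of the gene covered, 14.6%, was 15.7% with peaks merged within 1000 bp, 12.4% without peak 1, 4 or 5 and 10.7% without peak 2 or 3. Overlap with non-coding genes or exons stayed at 0 with peaks widened by 1 bin, and copies stayed at 0 at 90% identity over 50% of the peak. Unknown depth limits every result to the position of peaks, and without a score in the list no stricter peak threshold could be tried. No paired analysis was possible because there was a single RIP library and a single input library.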
